A study of Mus musculus with 16 samples.

Results

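Radiation was added to TGFb inhibition in 3 mouse mammary tumors, and their RNA was compared across all genes with that of 3 tumors given the inhibitor without radiation. These 6 tumors were chosen by their titles, IPW-5371 + RT against IPW-5371 only, out of 16 samples in the series. The series holds 15 tumors in 5 treatment groups of 3 tumors each, and 1 internal reference library that was not used here. All tumors carried the genotype Trp53 null and were transplants of 1 tumor family, family F, grown in female BALB/cJ hosts aged 8 to 10 weeks. Tumors entered treatment at a volume of 65 to 100 mm3, and tissue was frozen 7 days after it. The group called TGFbi here received IPW-5371, a small molecule that blocks TGFb, at 20 mg/kg every day by intraperitoneal injection. The group called TGFbi+RT received the same inhibitor, started 24 hours ahead of the radiation, and 10 Gy of radiation aimed at the tumor. Comparison groups without the inhibitor enter only where named: Sham, given a control immunoglobulin at 25 mg/kg, and RT, given 10 Gy without the inhibitor. Whether RT and the inhibitor groups also received control immunoglobulin is not given in the sources used here. All tumors come from 1 family, so the differences below describe that family, and the p-values measure the spread between these tumors only.

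TGFb is a secreted cytokine that is held in a latent form in the matrix, and ionizing radiation is one of the triggers that release it. Active TGFb signals through SMAD proteins, restrains T cells and natural killer cells, and drives matrix production by fibroblasts. Irradiated cells can also leak DNA into the cytosol, where the cGAS and STING sensors switch on type I interferon, whose target genes include antiviral enzymes, antigen presentation genes and chemokines for T cells.

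Total counts in the 6 tumors ranged from 11002869 to 13241308, with 18478 to 19521 genes detected at 1 count or more. The epithelial adhesion gene Epcam was present at 110 to 157 CPM (counts per 1e6 counted reads, with TMM-scaled library sizes) and the basal keratin Krt5 at 346.6 to 1117 CPM in the 6 tumors. Trp53 transcripts were counted at 63.9 to 96.6 CPM, and since the deleted part of the gene is not given in the sources used here, this level checks nothing about the genotype. All 6 libraries share the code A2301, and the library names of replicate 3 in both groups carry the mark resub, whose meaning is not given. TGFbi+RT replicate 3 stood apart from the other tumors, with a score of 100 on the first principal component of the 6 tumors (48.1% of the variance) against -53.1 to 6.10 in the other 5. Values without this tumor are therefore given beside the lists and the fold changes of single genes that its omission moved most. TGFbi replicate 3 had the highest share of counts on mitochondrial genes, 6.45% against 2.89% to 5.27% in the others, and on the small nuclear RNA gene Rn7sk, 6.30% against 1.63% to 2.11%.

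At day 7 the irradiated tumors had higher levels of interferon-stimulated genes, antigen presentation genes, T cell chemokines and cytotoxic lymphocyte genes than the tumors given the inhibitor alone. The size of this difference was set mainly by TGFbi+RT replicate 3. Levels of genes of DNA replication were slightly lower in the irradiated tumors. A smaller set of genes, among them Fbln7, Irs1, Gabpa, Mc1r and Padi3, separated the groups without resting on that tumor. These genes were picked by p from those without overlap, which made up 6.38% of all genes upward and 5.04% downward. No gene passed the threshold of 0.05 after Benjamini-Hochberg adjustment over the 16017 genes tested with the quasi-likelihood test of edgeR, and the smallest adjusted p was 0.789. The share called was thus 0%, and every p quoted below for single genes is unadjusted unless named otherwise.

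By the unadjusted p of edgeR, 970 genes were under 0.05 (6.06%), of which 697 were higher in the irradiated tumors (4.35% of genes tested) and 273 were lower (1.7%). DESeq2 called 3 genes at an adjusted p under 0.05 (0.0187%), and limma-voom called 0. For some genes named below, among them Cxcl9, Cxcl10, Cd274 and Gzmb, DESeq2 gave no adjusted p, so it could not call them. The 3 irradiated tumors all lay above the 3 inhibitor-only tumors for 1022 genes (6.38%) and all below them for 808 genes (5.04%). Among all genes, 53.7% had a fold change above 0, and the median was 0.03 on the log2 scale. A log2 fold change above 1 was found for 9.09% of genes and one under -1 for 0.73%. Without TGFbi+RT replicate 3, 264 genes were higher at an unadjusted p under 0.05 (1.62% of 16274) and 210 were lower (1.29%). Leaving out that 1 tumor thus brought the counts of higher and lower genes close to each other.

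**Figure D1:**
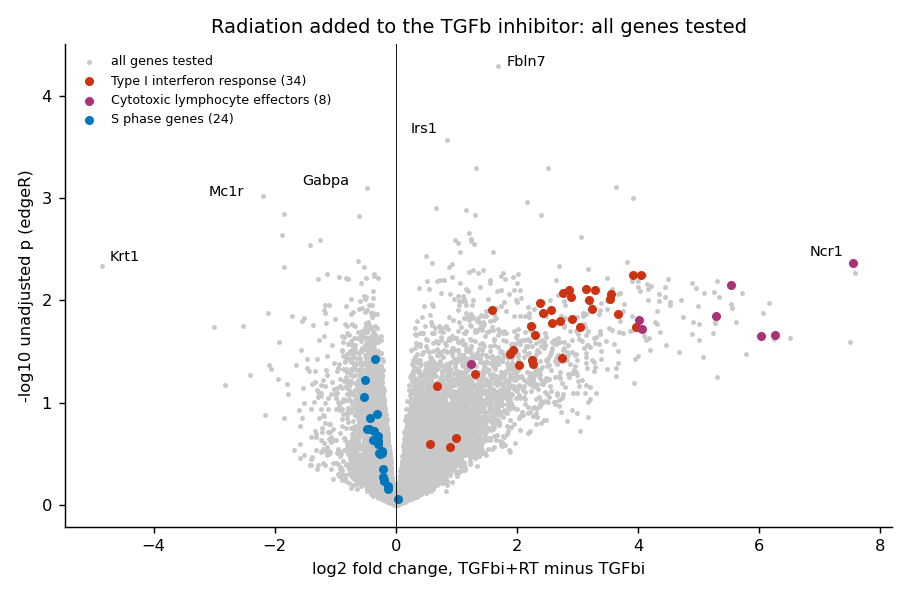
Fitted log2 fold change (x axis, TGFbi+RT minus TGFbi) against -log10 of the unadjusted edgeR p (y axis) for the 16017 genes tested, with 3 gene lists colored. The 34 type I interferon genes all lie to the right of 0, and 23 of the 24 S phase genes lie to the left.

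Among the interferon pathways, the type I interferon response list held the most uniform difference. It was above 0 in 34 of 34 tested members, and its median log2 fold change was 2.64 against 0.03 for all genes. In 26 of the 34 members even the lowest irradiated tumor exceeded the highest inhibitor-only tumor, beside 6.38% of all genes, and 29 of 34 had an unadjusted p under 0.05, beside 4.35%. The median offset from the TGFbi mean was 1.68, 0.90 and 3.76 on the log2 scale in TGFbi+RT replicates 1, 2 and 3, and -0.52 to 0.24 in the inhibitor-only tumors. All 3 irradiated tumors therefore stood above the inhibitor-only range, and replicate 3 stood farthest. Without replicate 3 the median was 1.23 and 33 of 34 members stayed above 0, with 2 at an unadjusted p under 0.05. The summed level of the list was 350.1, 198.9 and 333.3 CPM in TGFbi and 761.2, 487.7 and 3652 CPM in TGFbi+RT, beside 347.5, 135.7 and 313.4 CPM in Sham and 566.8, 314.2 and 332.8 CPM in RT. In a bulk sample, more cells of a type and more RNA per cell cannot be told apart, which holds for every list below. The shares over all genes, 6.38% without overlap upward and 4.35% higher at an unadjusted p under 0.05, also stand beside the counts of higher members in every list below.

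Oas3, an enzyme that makes the second messenger of RNase L after sensing double-stranded RNA, was at 2.64, 0.797 and 3.07 CPM with the inhibitor alone and at 17.4, 11.2 and 69.7 CPM after added radiation. Its log2 fold change was 3.91 ± 1.18 (standard error, edgeR p of 0.00566) and 2.69 without replicate 3 (p of 0.0336). The groups did not overlap, and the lowest irradiated tumor was well above the highest unirradiated one. Zbp1, a sensor of left-handed nucleic acid that can start necroptosis, measured 2.73, 1.59 and 6.30 CPM against 19.6, 13.7 and 143 CPM. Irf7, the transcription factor that amplifies the type I interferon loop, measured 5.01, 3.75 and 11.9 CPM against 44.6, 22.0 and 135 CPM. Both genes separated the groups, with log2 fold changes of 4.05 ± 1.22 for Zbp1 and 3.28 ± 1.05 for Irf7. Without replicate 3 these were 2.21 (p of 0.0584) and 2.25 (p of 0.0471).

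Isg15, a ubiquitin-like modifier, measured 6.07, 2.55 and 3.72 CPM in TGFbi and 20.5, 9.91 and 53.3 CPM in TGFbi+RT. Its log2 fold change was 2.76 ± 0.89 (edgeR p of 0.00843) and 1.86 without replicate 3. The GTPase Mx1, which blocks incoming viral genomes, measured 1.76, 1.28 and 2.34 CPM against 7.29, 6.84 and 33.4 CPM, again without overlap. Cmpk2, a mitochondrial nucleotide kinase, lay at 2.20 to 2.39 CPM in the inhibitor-only tumors and at 8.93, 6.14 and 35.5 CPM in the irradiated ones.

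**Figure D2:**
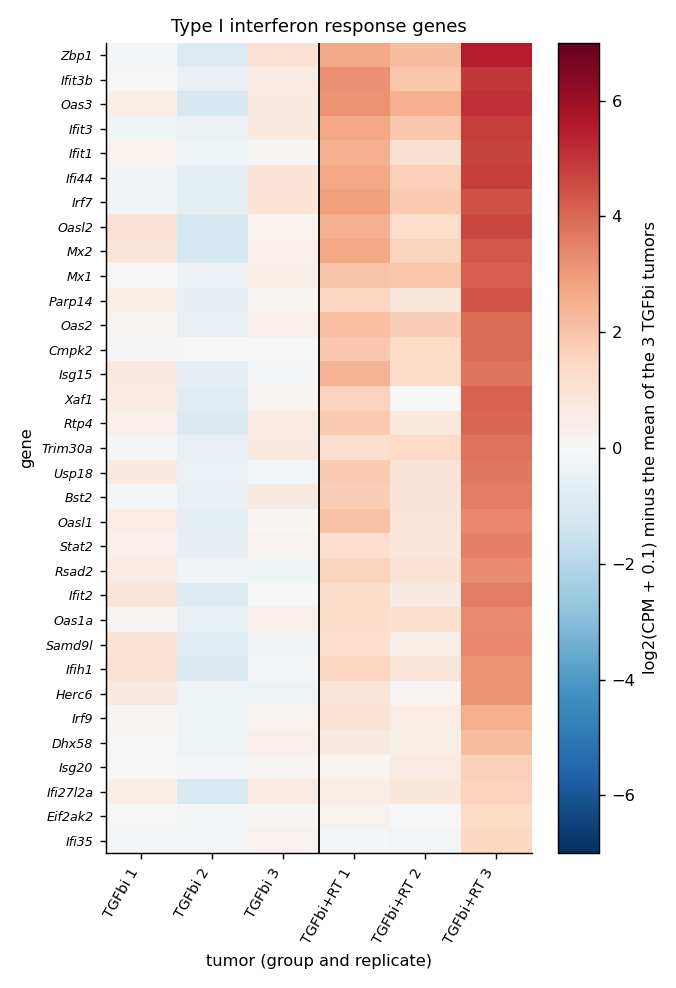
Type I interferon response genes (33 of the 34 tested as rows, ordered by fold change) in the 6 tumors (columns), as log2(CPM + 0.1) minus the mean of the 3 TGFbi tumors, red for higher and blue for lower. All 3 irradiated tumors are redder than the inhibitor-only tumors in most rows, replicate 1 more than replicate 2, and replicate 3 is the darkest.

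The promoters of 4 interferon-responsive genes are shown because the interferon-stimulated response element, a site bound by complexes that contain IRF proteins, can be read in them. RefSeq promoters (GRCm38.p6, from 250 bases before to 50 bases after the transcription start) were found for 24 of the 34 type I interferon genes tested. The motif, GAAA followed after any 2 bases by GAAA, was searched on both strands, with overlapping matches counted, and it is printed in capitals within the 300 bases of each promoter, 5′ to 3′ along the gene. Oas3 lies on chromosome 5, with its promoter at chr5:120777610-120777909 on the minus strand and the match starting at -75 from the transcription start. The Isg15 promoter is at chr4:156200769-156201068 on the minus strand and holds 3 overlapping matches. Tgtp2, an interferon gamma-induced GTPase described below, has its promoter at chr11:49064163-49064462 on the minus strand with a match at -70, and the chemokine gene Cxcl10 at chr5:92348840-92349139 on the minus strand with a match at -213.
Oas3: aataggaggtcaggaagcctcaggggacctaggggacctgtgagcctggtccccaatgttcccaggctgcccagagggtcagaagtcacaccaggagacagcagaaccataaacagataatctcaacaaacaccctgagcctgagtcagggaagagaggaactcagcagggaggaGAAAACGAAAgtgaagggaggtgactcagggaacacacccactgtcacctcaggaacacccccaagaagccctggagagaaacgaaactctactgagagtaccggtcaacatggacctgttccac
Isg15: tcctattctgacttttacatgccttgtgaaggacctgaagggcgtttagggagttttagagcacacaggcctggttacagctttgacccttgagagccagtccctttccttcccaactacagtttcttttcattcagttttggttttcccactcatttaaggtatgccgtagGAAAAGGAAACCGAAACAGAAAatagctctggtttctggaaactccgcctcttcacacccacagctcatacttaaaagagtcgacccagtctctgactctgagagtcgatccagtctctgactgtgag
Tgtp2: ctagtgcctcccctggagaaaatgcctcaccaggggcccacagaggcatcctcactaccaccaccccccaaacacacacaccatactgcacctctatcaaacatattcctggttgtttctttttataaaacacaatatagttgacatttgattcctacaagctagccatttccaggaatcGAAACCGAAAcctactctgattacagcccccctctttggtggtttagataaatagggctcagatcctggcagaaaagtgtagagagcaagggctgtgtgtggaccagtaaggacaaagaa
Cxcl10: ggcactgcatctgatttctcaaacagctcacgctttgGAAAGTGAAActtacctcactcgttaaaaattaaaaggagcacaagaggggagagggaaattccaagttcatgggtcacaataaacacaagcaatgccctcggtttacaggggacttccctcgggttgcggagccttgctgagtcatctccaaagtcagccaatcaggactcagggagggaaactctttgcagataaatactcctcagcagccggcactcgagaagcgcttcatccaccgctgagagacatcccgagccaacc

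The motif was present in 12 of the 24 type I interferon genes with a promoter and in 10 of 12 interferon gamma-induced GTPases and regulators. Among MHC class I genes it was present in 4 of 14, and among S phase genes in 0 of 20. It occurs in 3.87% of the 11957 genes tested with a promoter and in 3.44% of all 32851 promoters of that length. The gamma-activated site TTCNNNGAA, searched the same way, was present in 6 of the 24 type I genes and 8 of the 12 GTPases and regulators, beside 8.20% of genes tested. A match describes the letters of the promoter and does not show that a factor binds there.

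Genes upstream of this response differed less. The list of nucleic acid sensors and interferon receptors had a median of 0.53 (log2 fold change), with 17 of 17 tested members above 0, 3 without overlap and 4 at an unadjusted p under 0.05. Without replicate 3 the median was 0.14, with 11 of 17 above 0 and 0 at an unadjusted p under 0.05. Cgas, the sensor of cytosolic DNA, measured 15.6, 16.7 and 17.8 CPM in TGFbi and 13.5, 16.9 and 21.0 CPM in TGFbi+RT. Its log2 fold change was 0.04 ± 0.26 and -0.15 without replicate 3, and the groups overlapped. Sting1, the adaptor that cGAS activates, measured 18.6, 14.3 and 12.2 CPM against 29.0, 14.3 and 63.6 CPM (log2 fold change of 1.25 ± 0.49, edgeR p of 0.0247, and 0.50 without replicate 3). Trex1, the nuclease that removes cytosolic DNA, measured 6.16, 5.74 and 7.51 CPM against 12.5, 8.65 and 32.2 CPM, without overlap. The RNA editing enzyme Adar, itself an interferon target, measured 56.6, 47.7 and 51.6 CPM against 78.3, 64.9 and 129 CPM, also without overlap. The interferon genes themselves were near the detection limit and were not tested. Ifnb1 had 0 counts in the TGFbi tumors and 1 in the TGFbi+RT tumors, and Ifng had 3 and 32, with 0.149, 0.393 and 2.13 CPM in the irradiated tumors.

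The GTPases and regulators induced by interferon gamma had the largest median of the interferon lists, 3.32, with 18 of 18 members above 0, 9 without overlap and 15 at an unadjusted p under 0.05. Their offsets from the TGFbi mean were 1.52 and 0.59 in TGFbi+RT replicates 1 and 2 and 5.13 in replicate 3. The median without replicate 3 was 0.97, with 17 of 18 above 0 and 0 at an unadjusted p under 0.05. Iigp1, a GTPase that disrupts vacuoles of intracellular parasites, measured 7.04, 2.07 and 8.08 CPM in TGFbi and 25.2, 17.3 and 616 CPM in TGFbi+RT. Gbp6, a guanylate-binding protein, measured 3.17, 0.399 and 2.18 CPM against 11.4, 5.98 and 285 CPM. Their log2 fold changes of 5.26 ± 1.69 and 5.72 ± 1.84 came down to 1.87 and 2.16 without replicate 3. Tgtp2 measured 2.55, 3.11 and 6.46 CPM against 14.8, 10.1 and 240 CPM, but Tgtp1 is a near-identical copy, and how reads were divided between the 2 genes is uncertain. Tgtp1 itself overlapped between the groups, with 22.4, 23.2 and 33.0 CPM against 97.6, 31.9 and 628 CPM. In Iigp1 and Gbp6 replicate 3 was at least an order of magnitude above the other irradiated tumors, which themselves exceeded all inhibitor-only tumors.

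Antigen presentation genes followed the same order of tumors. For MHC class I, 17 of 17 tested members were above 0 with a median of 1.38, 8 without overlap and 9 at an unadjusted p under 0.05. Nlrc5, the transactivator of class I genes, measured 46.2, 38.8 and 39.4 CPM in TGFbi and 53.3, 87.6 and 251 CPM in TGFbi+RT (log2 fold change of 1.65 ± 0.59, edgeR p of 0.0149, and 0.74 without replicate 3). Tap1, a subunit of the peptide transporter, measured 40.0, 33.2 and 46.6 CPM against 59.4, 56.3 and 367 CPM. Replicate 3 was the highest tumor in both. The light chain B2m measured 601, 322 and 480 CPM against 612, 633 and 1870.0 CPM. The heavy chain H2-K1 measured 51.7, 36.3 and 43.6 CPM against 62.8, 52.2 and 176 CPM. All 4 genes separated the groups, though for B2m and H2-K1 the margin between the nearest tumors was small. The class I median without replicate 3 was 0.34, with 15 of 17 above 0 and 0 at an unadjusted p under 0.05.

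For MHC class II, 9 of 9 tested members were above 0 with a median of 2.83, 5 without overlap and 8 at an unadjusted p under 0.05. The transactivator Ciita measured 6.24, 2.63 and 5.25 CPM in TGFbi and 8.63, 6.53 and 86.5 CPM in TGFbi+RT (log2 fold change of 2.85 ± 1.14, and 0.66 without replicate 3). The class II chain H2-Eb1 measured 7.74, 2.31 and 12.5 CPM against 27.2, 12.7 and 151 CPM. H2-DMb1, which helps load peptide, measured 0.704, 0.239 and 1.05 CPM against 3.50, 2.36 and 24.5 CPM. These 3 genes separated the groups, Ciita and H2-Eb1 by narrow margins. The invariant chain Cd74 overlapped between groups, with 39.9, 18.5 and 54.2 CPM against 111, 51.9 and 572 CPM. Without replicate 3 the class II median was 1.09, with 9 of 9 members above 0 and 0 at an unadjusted p under 0.05.

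**Figure D3:**
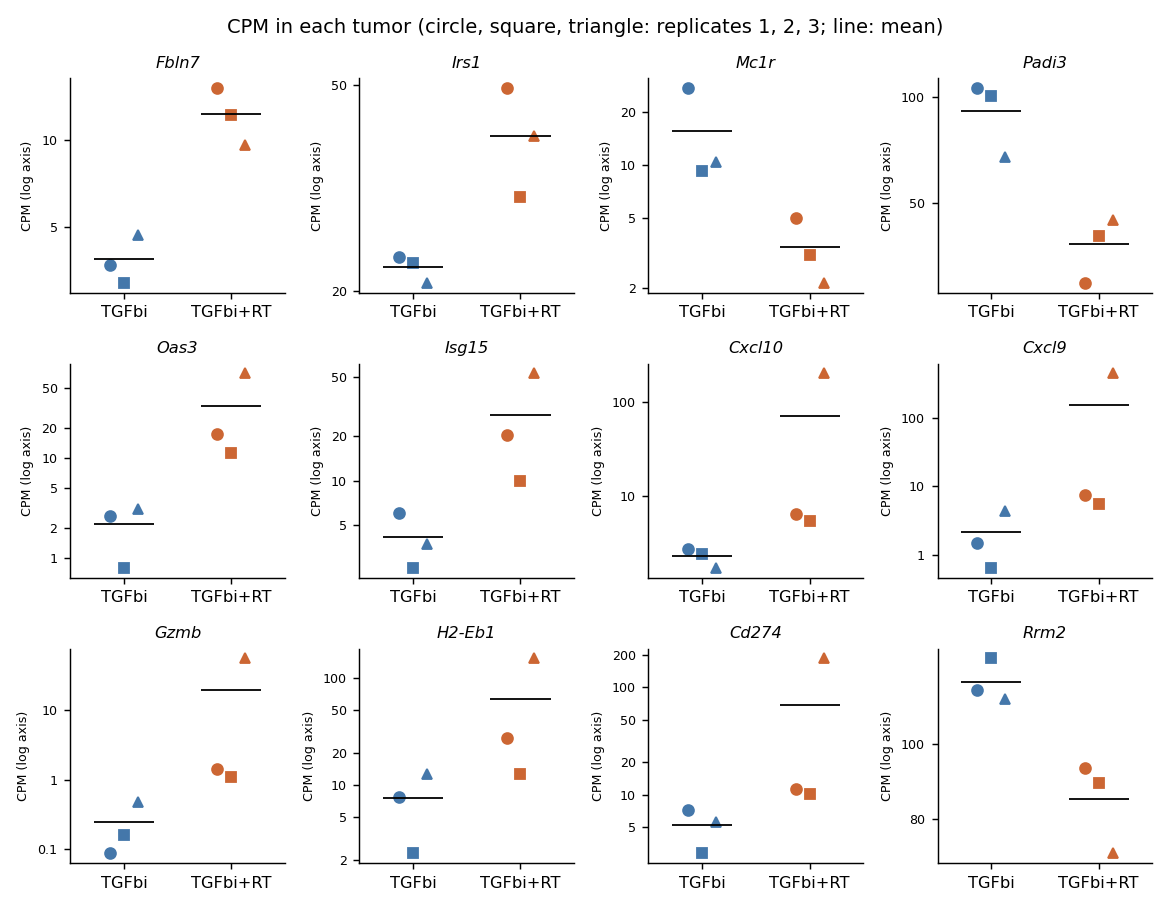
CPM on a log axis for 12 genes in the 3 TGFbi tumors (blue) and the 3 TGFbi+RT tumors (orange), with symbols for replicates and a line for the group mean. In Fbln7, Irs1, Mc1r, Padi3 and Rrm2 all irradiated tumors lie beyond the inhibitor-only tumors by amounts that vary, while replicate 3 sets the mean of Cxcl9, Cxcl10, Gzmb and Cd274.

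Chemokines that draw T cells and their receptors were above 0 in 8 of 8 tested members, with a median of 2.76, 5 without overlap and 5 at an unadjusted p under 0.05. Only 8 of the 12 listed genes passed the low-count filter. For a member that passed it through the TGFbi+RT tumors, lying above 0 was partly fixed by the filter. The same limit holds for other lists with untested members. Cxcl10 measured 2.73, 2.39 and 1.70 CPM in TGFbi and 6.32, 5.43 and 201 CPM in TGFbi+RT. Cxcl9 measured 1.5, 0.638 and 4.28 CPM against 7.59, 5.59 and 449 CPM. Their shared receptor Cxcr3, a marker of activated T cells and natural killer cells, measured 0.0879, 0.239 and 0.0808 CPM against 1.26, 0.708 and 5.88 CPM. Each of the 3 genes separated the groups, with log2 fold changes of 4.96 ± 1.57, 6.16 ± 2.06 and 4.16 ± 1.32. Without replicate 3 these were 1.34, 1.59 and 2.75 (edgeR p of 0.253, 0.319 and 0.0553). Cxcr3 had 5 counts over the 3 TGFbi tumors, so its fold change was set near the detection limit. The list's median without replicate 3 was 1.27, with 8 of 8 above 0 and 0 at an unadjusted p under 0.05. Ccl5, made by activated T cells, overlapped between the groups, since TGFbi+RT replicate 2 had 0.0787 CPM against 0.160 to 0.791 CPM in TGFbi.

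Cytotoxic effector genes gave the largest median of all lists, 5.41 over the 8 tested members, all above 0, 6 without overlap and 8 at an unadjusted p under 0.05. The other 10 of the 18 listed genes were under the low-count filter, and a member that passed it through TGFbi+RT replicate 3 had to differ. The summed level of all 18 markers was 4.05 to 7.35 CPM in TGFbi and 18.3, 11.6 and 294 CPM in TGFbi+RT. Ncr1, a receptor of natural killer cells, had 1 count over the 3 TGFbi tumors and 245 over the TGFbi+RT tumors, or 1.12, 1.10 and 18.4 CPM. Prf1, which encodes the pore-forming perforin, measured 0.264, 0.319 and 0.566 CPM against 2.23, 0.629 and 51.8 CPM. In both genes TGFbi+RT replicate 3 stood far above the rest. Gzmb, the protease granzyme B, measured 0.0879, 0.160 and 0.485 CPM against 1.41, 1.10 and 56.2 CPM. The granule protein Nkg7 measured 0.264, 0 and 0.323 CPM against 1.19, 0.393 and 22.2 CPM. None of these 4 genes overlapped between the groups, yet in replicates 1 and 2 their levels stayed at 0.393 to 2.23 CPM. Without replicate 3 the list's median was 1.89 with 8 of 8 above 0, and 1 of 8 had an unadjusted p under 0.05, which was Ncr1 (4.92, p of 0.0241).

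T cell markers had a median of 2.64 with 19 of 21 tested members above 0, 7 without overlap upward and 8 at an unadjusted p under 0.05. The adhesion receptor Cd2 measured 0.176, 0.0797 and 0.162 CPM in TGFbi and 0.670, 0.865 and 5.54 CPM in TGFbi+RT. Cd6, a costimulatory receptor, measured 0, 0.160 and 0.0808 CPM against 0.893, 0.551 and 4.09 CPM. The T cell receptor alpha chain Trac measured 0.264, 0.478 and 0.485 CPM against 1.49, 0.865 and 6.31 CPM. These 3 genes separated the groups at levels below 7 CPM. The coreceptor Cd8a had 0 counts in all 3 TGFbi tumors and 30 counts in the TGFbi+RT tumors, at least 10.1-fold higher against a floor of 3 counts over the group. Its TGFbi+RT levels were 0.298, 0.0787 and 2.13 CPM, so this bound was set mainly by replicate 3 (edgeR p of 0.132 without it). Cd3e, a chain of the T cell receptor complex, overlapped, with 0.528, 0.239 and 0.404 CPM against 0.893, 0.472 and 6.05 CPM. Without replicate 3 the list's median was 0.78 with 0 members at an unadjusted p under 0.05. The 2 members below 0 were Bcl11b and Tcf7, named after their values were seen. Tcf7, a transcription factor at 172 to 326 CPM that makes up most of the list's summed level, was lower in all 3 irradiated tumors. The summed level of the 21 markers was therefore 298.4 to 382.2 CPM in TGFbi and 246.6 to 368.0 CPM in TGFbi+RT, and the part of T cells and natural killer cells in the interferon-related differences was not tested.

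Checkpoint genes included Cd274, which encodes PD-L1, the ligand of the T cell receptor PD-1. Cd274 measured 7.21, 2.87 and 5.58 CPM in TGFbi and 11.2, 10.2 and 185 CPM in TGFbi+RT. Its log2 fold change was 3.72 ± 1.30 (edgeR p of 0.0134) and 1.01 without replicate 3 (p of 0.338). The 3 tumors of each group did not overlap. Over the list of checkpoint and regulatory T cell genes, 14 of 15 tested members were above 0, with a median of 1.69, 5 without overlap and 3 at an unadjusted p under 0.05. Without replicate 3 that median was 0.96, with 0 at an unadjusted p under 0.05. B cell markers were near the detection limit, with 5 of 12 tested, and Ms4a1 and Pax5 had 0 to 2 counts over each group.

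Lists of myeloid cell markers had smaller medians over the 6 tumors than the T cell and cytotoxic lists. Macrophage markers summed to 712.8 to 1519 CPM in TGFbi and to 1391, 1151 and 3980.0 CPM in TGFbi+RT. They had 16 of 19 members above 0 and a median of 1.02, but 1 without overlap (beside 6.38% of all genes) and 1 at an unadjusted p under 0.05 (beside 4.35%). Both counts were near those shares. The member under 0.05 was Fcgr1. This high-affinity immunoglobulin receptor, itself induced by interferon gamma, measured 2.11, 1.91 and 6.63 CPM in TGFbi and 9.60, 8.26 and 39.4 CPM in TGFbi+RT. Adgre1, the F4/80 antigen of mouse macrophages, overlapped, with 26.2, 17.4 and 50.6 CPM against 50.9, 42.1 and 209 CPM. The macrophage median without replicate 3 was 0.25. Monocyte and neutrophil markers kept more of their difference, with a median of 1.06 and 0.89 without replicate 3, 14 of 14 above 0 and 8 without overlap. Ly6c2, a marker of inflammatory monocytes, measured 0.0879, 0.239 and 0.970 CPM against 2.38, 4.72 and 16.5 CPM. The chemokine receptor Ccr2, which brings monocytes out of the bone marrow, measured 14.2, 6.78 and 18.3 CPM against 20.5, 32.0 and 104 CPM. Without replicate 3, Ly6c2 had a log2 fold change of 2.98 (p of 0.037). Dendritic cell markers had a median of 1.41 with 12 of 13 above 0 and 4 without overlap, and 0.16 without replicate 3. Ccl22, a chemokine of mature dendritic cells, measured 1.5, 0.399 and 0.970 CPM against 3.65, 2.28 and 28.4 CPM.

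**Figure D4:**
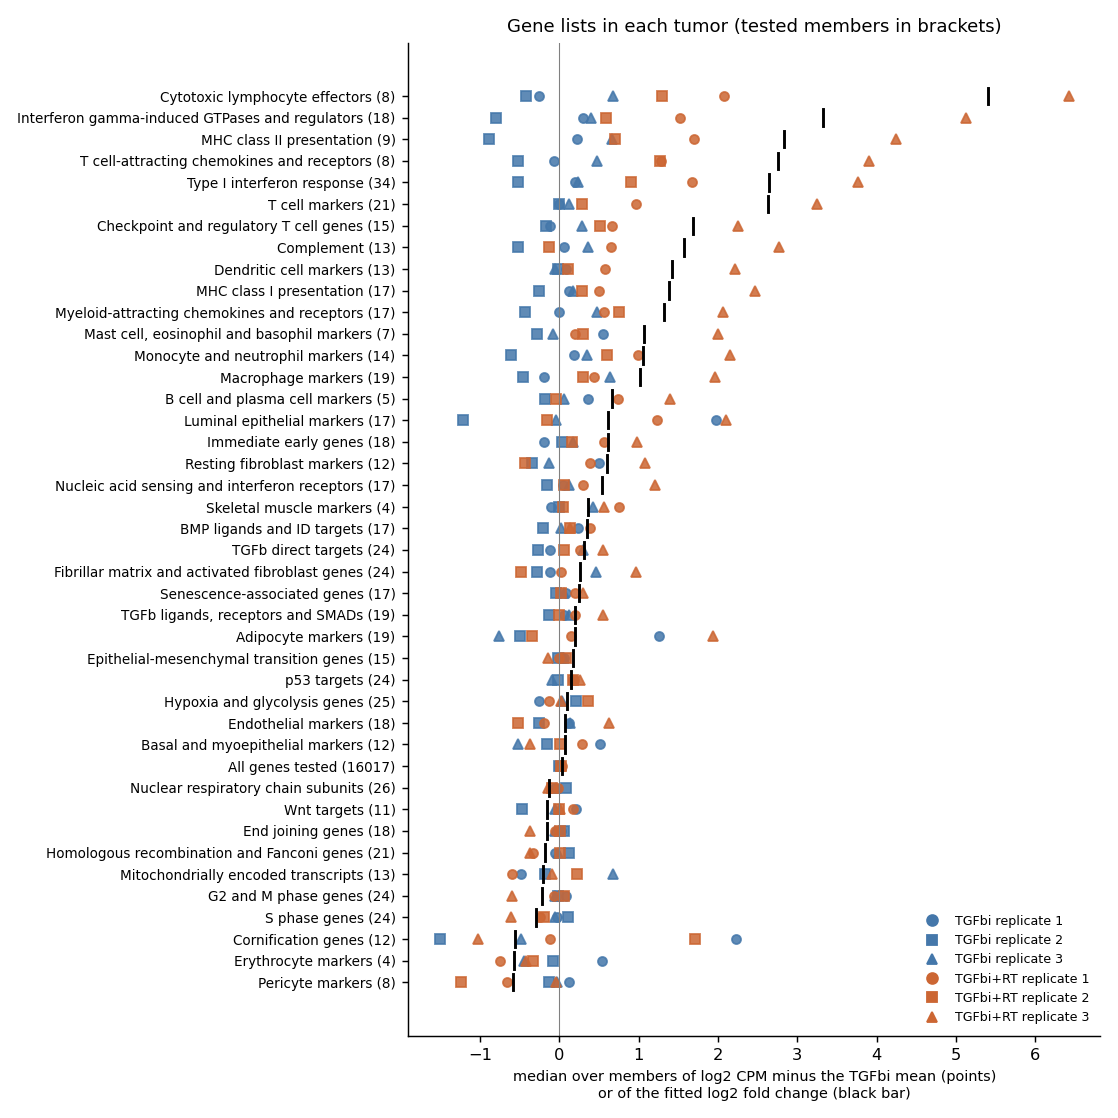
Median over the tested members of each gene list of log2 CPM minus the TGFbi mean, for each tumor (points), with the median fitted log2 fold change as a black bar. In the interferon, presentation, chemokine and cytotoxic lists the 3 irradiated tumors (orange) lie to the right of 0 with replicate 3 (triangle) farthest, while in the adipocyte, luminal and cornification lists the tumors of each group spread widely.

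Outside the immune lists, the gene with the smallest p was Fbln7 (chr2:128863932-128897034), which encodes fibulin 7, a matrix protein to which cells attach. It measured 3.69, 3.19 and 4.69 CPM in TGFbi and 15.2, 12.3 and 9.64 CPM in TGFbi+RT. The groups were far apart, and replicate 3 was the lowest of the irradiated tumors. The log2 fold change was 1.68 ± 0.28 (edgeR p of 5.1e-05) and 1.80 without replicate 3, and DESeq2 called it with an adjusted p of 0.00139, higher in 3 of 3 irradiated tumors. Irs1, the adaptor of the insulin and IGF receptors, measured 23.3, 22.7 and 20.8 CPM against 49.4, 30.5 and 39.9 CPM, a log2 fold change of 0.84 ± 0.17, also called by DESeq2 (adjusted p of 0.0356). Gabpa, an ETS factor that regulates mitochondrial genes, was lower, with 95.9, 95.1 and 83.8 CPM against 65.3, 68.9 and 64.1 CPM. Its log2 fold change was -0.47 ± 0.11, and DESeq2 gave an adjusted p of 0.0356 with all 3 irradiated tumors lower. These 3 genes were the ones DESeq2 called, and limma-voom called none of them.

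Other genes named by rank among those without overlap and higher in the irradiated tumors included Adam33, Chd7, Tead4, Col20a1, Plcb1, Cep295nl and Gm15910. Adam33, a metalloprotease, measured 1.05, 1.28 and 1.29 CPM against 5.13, 3.23 and 12.5 CPM (log2 fold change of 2.52 ± 0.55, edgeR p of 0.000512). Chd7, a chromatin remodeler, measured 57.4, 48.9 and 48.9 CPM against 85.1, 86.1 and 74.4 CPM. Tead4, a DNA-binding partner of YAP, measured 2.55, 1.99 and 1.86 CPM against 4.69, 4.33 and 5.29 CPM. In Chd7 and Tead4 the 3 irradiated tumors lay close together and replicate 3 did not stand out. Plcb1, a phospholipase that acts downstream of G protein-coupled receptors, measured 9.14, 6.78 and 6.14 CPM against 14.2, 20.9 and 17.1 CPM. The remaining 3, Col20a1, Cep295nl and Gm15910, had log2 fold changes of 1.20, 1.24 and 1.32 at levels of 1.04 to 6.92 CPM.

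On the lower side, rank by p among genes without overlap named Mc1r and Tubb3. These are neighbors on chromosome 8 at 123407082 to 123410744 and 123411564 to 123422010. Mc1r, the melanocortin receptor, measured 27.2, 9.17 and 10.3 CPM in TGFbi and 4.99, 3.07 and 2.13 CPM in TGFbi+RT (log2 fold change of -2.19 ± 0.51, edgeR p of 0.000948). Tubb3, a beta tubulin best known from neurons, measured 23.4, 7.89 and 12.4 CPM against 5.21, 4.56 and 2.30 CPM. The same TGFbi tumor, replicate 1, was highest for both. Whether reads running from the one gene into the other add to both counts was not tested. Padi3, an enzyme that citrullinates proteins in hair follicles and skin, measured 106, 101 and 67.6 CPM against 29.8, 40.5 and 44.8 CPM. Krt90, a type II keratin, measured 12.8, 6.78 and 8.08 CPM against 2.75, 2.05 and 2.90 CPM. Aass, which breaks down lysine, measured 15.4, 12.4 and 12.6 CPM against 6.62, 4.41 and 4.09 CPM. Lack of overlap was a condition for naming these 3 genes and not a further result. Rgs12, Mmgt1, Lancl2 and Exoc3l4 complete the set, with log2 fold changes of -0.60, -0.63, -0.53 and -1.13.

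Genes of the TGFb pathway differed little between the groups. The direct target list had 22 of 24 members above 0 but their median was 0.31 (log2 fold change), with 2 members without overlap (beside 6.38% of all genes) and 1 at an unadjusted p under 0.05 (beside 4.35%). Without replicate 3 the median was 0.12, with 18 of 24 above 0. The gene with the low p was Acta2, smooth muscle actin, which measured 147, 115 and 190 CPM in TGFbi and 521, 364 and 156 CPM in TGFbi+RT. Replicates 1 and 2 were high and replicate 3 lay within the inhibitor-only range, so its log2 fold change of 1.20 ± 0.42 was 1.53 without replicate 3 (p of 0.00138). Smad7, the feedback inhibitor, measured 26.5, 19.1 and 24.3 CPM against 27.4, 21.3 and 29.5 CPM. Its groups overlapped, with a log2 fold change of 0.16 ± 0.24, and 0.040 without replicate 3. The secreted matrix protein gene Tgfbi, not to be confused with the treatment group, measured 16.4, 14.3 and 25.7 CPM against 26.2, 34.5 and 69.6 CPM without overlap.

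Among ligands and receptors, the ligand Tgfb1 measured 50.8, 47.8 and 66.4 CPM against 60.9, 41.1 and 110 CPM. The receptor Tgfbr1 measured 51.5, 50.9 and 60.1 CPM against 66.1, 74.1 and 88.4 CPM. Tgfbr1 separated the groups by a small margin (log2 fold change of 0.49 ± 0.36), whereas Tgfb1 overlapped. The related ligand Bmp4 was low but separated them, with 0.704, 0.319 and 0.323 CPM against 1.41, 1.89 and 0.853 CPM (log2 fold change of 1.62 ± 0.57, edgeR p of 0.0135). Id2, a target of BMP signaling that blocks basic helix-loop-helix factors, measured 23.2, 16.0 and 32.4 CPM against 30.2, 45.1 and 79.0 CPM and overlapped.

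Replication genes were slightly lower in the irradiated tumors. Of 24 S phase genes, 23 were below 0 and the median was -0.29 (log2 fold change), and for 10 of them all irradiated tumors lay below all inhibitor-only tumors, beside 5.04% of all genes. Of the 24, 1 had an unadjusted p under 0.05, beside 1.7% of all genes. That gene, Slbp, which binds histone mRNA, measured 58.6, 55.0 and 50.2 CPM in TGFbi and 42.3, 43.9 and 43.1 CPM in TGFbi+RT. Rrm2, a subunit of ribonucleotide reductase, measured 117, 129 and 114 CPM against 93.2, 89.0 and 72.1 CPM. Tyms, thymidylate synthase, measured 94.1, 102 and 96.2 CPM against 70.5, 78.1 and 55.3 CPM. Replicate 3 was again the most distant, but the S phase median without it was still -0.21, with 22 of 24 members at or below 0. Genes of G2 and mitosis had a median of -0.22, which was -0.05 without replicate 3. The proliferation marker Mki67 overlapped, with 850, 879 and 693 CPM against 586, 739 and 578 CPM.

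DNA repair lists differed by similar small amounts. Homologous recombination and Fanconi genes were below 0 in 17 of 21 members with a median of -0.18, and end joining genes in 15 of 18 with a median of -0.15. Without replicate 3 these medians were -0.17 and -0.064, with 7 of 18 end joining genes above 0. Rbbp8, which encodes CtIP, the factor that starts end resection, measured 267, 161 and 124 CPM against 104, 126 and 90.7 CPM (log2 fold change of -0.79 ± 0.24, edgeR p of 0.00621), with a narrow overlap. Lig1, the ligase that joins replication fragments, measured 67.3, 86.1 and 74.8 CPM against 62.0, 57.4 and 51.1 CPM without overlap. Polq, the polymerase of microhomology-mediated end joining, overlapped, with 44.8, 54.5 and 42.3 CPM against 34.9, 51.9 and 35.4 CPM. In these Trp53 null tumors the p53 target list had a median of 0.15 with 17 of 24 members above 0 (beside 53.7% of all genes), 2 without overlap (beside 6.38%) and 1 at an unadjusted p under 0.05 (beside 4.35%), the receptor gene Eda2r. Cdkn1a, the cell cycle inhibitor p21, measured 35.0, 15.9 and 20.9 CPM against 30.1, 40.5 and 95.1 CPM and overlapped. Immediate early genes had a median of 0.61, and 0.24 without replicate 3, with 17 of 18 above 0, among them Jun, at 25.7, 12.4 and 18.7 CPM against 43.1, 32.6 and 47.3 CPM without overlap.

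Markers of several tissue compartments varied widely within each group. Adipocyte markers had a median of 0.20, and -0.86 without replicate 3. Cfd, a serine protease secreted by fat cells, ranged widely in both groups, from 80.8, 2.87 and 0.889 CPM in TGFbi to 11.8, 2.60 and 82.4 CPM in TGFbi+RT. The tumor highest in adipocyte markers in each group, TGFbi replicate 1 and TGFbi+RT replicate 3, had offsets of 1.26 and 1.94. Luminal epithelial markers ran the same way, with a median of 0.61, and -0.08 without replicate 3, and the part of either list in the immune differences was not tested. Krt1, a keratin of cornifying epithelium, was at 31.4 CPM in TGFbi replicate 3 and at 0.160 to 0.879 CPM in the other 5 tumors, so its log2 fold change of -4.85 ± 1.42 rested on 1 tumor and the groups overlapped. Fibrillar matrix and activated fibroblast genes had a median of 0.26, and -0.26 without replicate 3. Col1a1, the main fibrillar collagen chain, measured 931, 957 and 1846 CPM against 1087, 691 and 1852 CPM. Pericyte markers were below 0 in 6 of 8 members with a median of -0.59, and -1.02 without replicate 3. Kcnj8, a potassium channel of pericytes, measured 6.77, 6.30 and 8.08 CPM against 1.86, 2.12 and 4.43 CPM. Abcc9, its sulfonylurea receptor partner, measured 40.5, 31.9 and 33.1 CPM against 14.1, 12.5 and 35.9 CPM. Both were low in irradiated replicates 1 and 2, and of the 2 genes Kcnj8 alone separated the groups. Hemoglobin Hba-a1, whose reads are shared with the near-identical Hba-a2, measured 416, 286 and 217 CPM against 177, 205 and 193 CPM.

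Whether radiation did the same with and without the inhibitor was tested as the difference between TGFbi+RT minus TGFbi and RT minus Sham, in the same fit. No gene passed in edgeR (0%), and 608 had an unadjusted p under 0.05 (3.8%), of which 404 were higher (2.52%) and 204 lower (1.27%). DESeq2 called 3 genes (0.0187%) and limma-voom called 0. Every RT library carries the code A2304 and the other 9 libraries of this test carry A2301, so radiation alone and the library code cannot be told apart here. Control immunoglobulin is stated for Sham only, so a difference in it between Sham and RT cannot be told apart either. Tox, named after its values were seen, was among the DESeq2 calls with an adjusted p of 0.0162.

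Tox, a nuclear factor of T cell differentiation, measured 4.65, 11.2 and 0.584 CPM in Sham and 0.204 to 0.624 CPM in RT, against 0.616, 0.239 and 0 CPM in TGFbi and 1.34, 4.80 and 2.90 CPM in TGFbi+RT. Its Sham and RT tumors overlapped.

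Fbln7 overlapped between the groups without the inhibitor, at 21.8, 25.4 and 18.5 CPM in Sham and 22.1, 19.8 and 17 CPM in RT. Its TGFbi+RT tumors thus lay between TGFbi and Sham (interaction of 1.83 ± 0.39 log2 units, edgeR p of 0.000397). Mc1r and Tubb3 ran the other way. Mc1r measured 1.61, 1.97 and 1.95 CPM in Sham and 2.62, 2.44 and 5.13 CPM in RT, so its TGFbi tumors were the highest of the 4 groups. Cbx5, the heterochromatin protein HP1 alpha, measured 222, 200 and 237 CPM in Sham, 303, 393 and 445 CPM in RT, 309, 466 and 386 CPM in TGFbi and 336, 236 and 297 CPM in TGFbi+RT (interaction of -1.21 ± 0.29, edgeR p of 0.00118). Bhlhe40, a target of TGFb and of hypoxia, measured 310, 266 and 241 CPM in Sham, 146, 129 and 135 CPM in RT, 148, 168 and 167 CPM in TGFbi and 160, 261 and 167 CPM in TGFbi+RT.

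**Figure D5:**
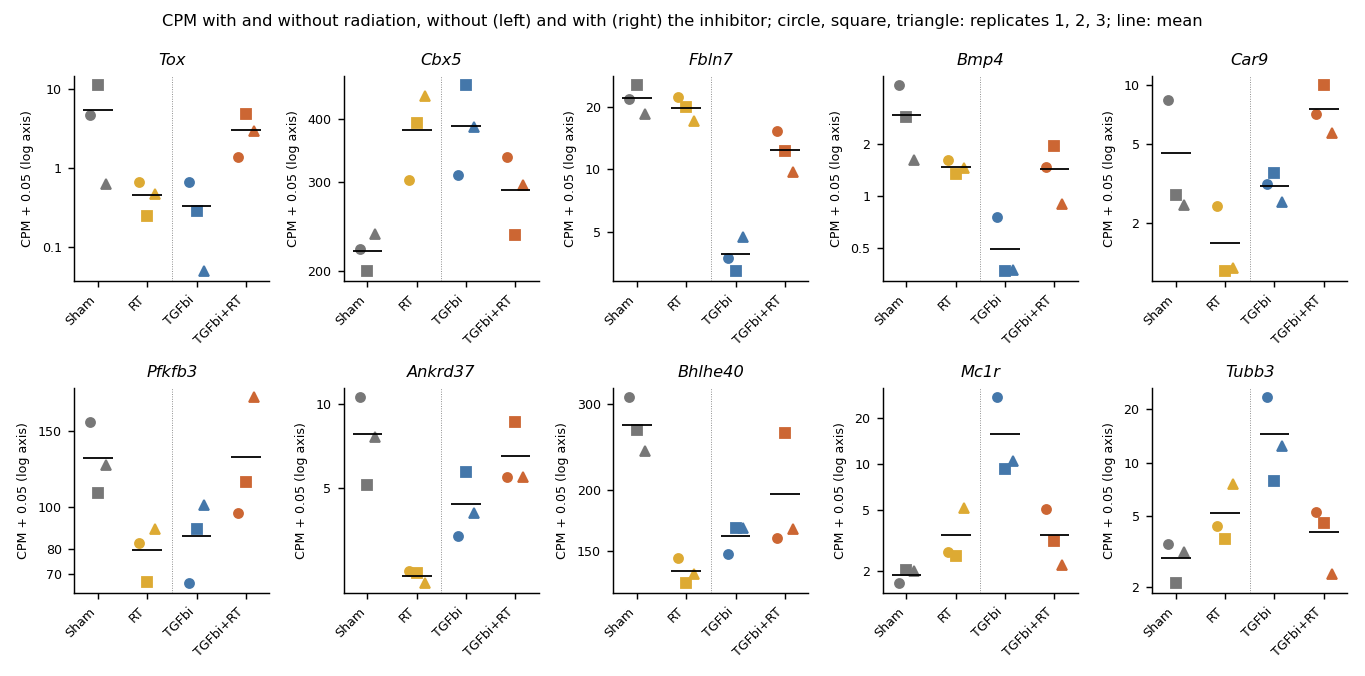
CPM plus 0.05 on a log axis for 10 genes in the Sham, RT, TGFbi and TGFbi+RT tumors, with symbols for replicates and a line for the group mean. In Car9 the irradiated tumors are lower without the inhibitor, by a narrow margin between the nearest tumors, and higher with it. Mc1r and Tubb3 show the opposite order.

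Hypoxia and glycolysis genes, which HIF factors induce when oxygen is low, were the list with the most members under an unadjusted p of 0.05 in this test. In TGFbi+RT against TGFbi the list had a median of 0.09, and 0.04 without replicate 3, with 16 of 25 members above 0, and 1 member, Car9, separated the groups upward. The interaction had a median of 1.00 with 25 of 25 members above 0 and 8 at an unadjusted p under 0.05, beside 2.52% of all genes. Without TGFbi+RT replicate 3 it was 1.03, again with 25 above 0 and 8 at an unadjusted p under 0.05. The summed level of the list was 7686, 7130 and 7630 CPM in Sham and 3774, 4148 and 5000.0 CPM in RT, against 5055, 6287 and 5415 CPM in TGFbi and 5289, 6625 and 5036 CPM in TGFbi+RT. Car9, carbonic anhydrase 9, measured 8.29, 2.70 and 2.40 CPM in Sham and 2.37, 1.09 and 1.12 CPM in RT, against 3.08, 3.51 and 2.5 CPM in TGFbi and 7.07, 9.91 and 5.63 CPM in TGFbi+RT. Pfkfb3, which makes the activator of glycolytic phosphofructokinase, measured 157, 108 and 125 CPM in Sham and 82.3, 67.1 and 89.0 CPM in RT, against 66.5, 89.0 and 101 CPM in TGFbi and 96.5, 114 and 179 CPM in TGFbi+RT. Both genes had the RT tumors all below Sham, and Car9 also had the TGFbi+RT tumors all above TGFbi. For Car9 the margin between Sham and RT was narrow, with 2.40 and 2.37 CPM in the nearest tumors. Type I interferon genes had a median interaction of 1.76 with 33 of 34 above 0 and 0 at an unadjusted p under 0.05. Without TGFbi+RT replicate 3 this median was 0.42, with 29 of 34 above 0. Leaving out that tumor turned the median interaction of cytotoxic effectors from 1.91 to -0.75, of T cell markers from 0.45 to -0.48 and of MHC class II from 1.45 to -0.26. Medians stayed above 0 for MHC class I, 1.41 to 0.39, and for the interferon gamma-induced GTPases and regulators, 2.95 to 0.61.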

How the data were processed

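RNA sequencing counts per Entrez gene were deposited by the authors as 1 table of raw counts, with no normalization. Per the file headers the counts came from Subread alignments, and the genome build was GRCm38 per the submitters' processing notes. Aligner settings, strand handling and annotation release are not given in the sources used here, so reads of overlapping genes cannot be told apart. The exon length of each gene, deposited by the authors beside the counts as another measure, was not used. Gene positions came from the start and end coordinates in the same deposited annotation. Of 27179 gene IDs, 25275 matched a symbol, and 0 columns of per-sample values were left unused.

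Genes were filtered with filterByExpr, libraries scaled by TMM (factors 0.919 to 1.05), and all 15 tumors fitted with 1 mean per group in edgeR 4.0.16 (glmQLFit, glmQLFTest) under R 4.3.3, with 10 residual degrees of freedom and a common biological coefficient of variation of 0.364. Of the 16017 genes tested, 15483 had a symbol. P-values were adjusted over all genes tested with the Benjamini-Hochberg method at a threshold of 0.05. DESeq2 1.42.0, limma 3.58.1 (voom), another scaling, other filters, a replicate block, a fit of the 6 tumors alone and the omission of single tumors were alternatives, and the scripts were tested on simulated data. Groups were taken from the sample titles. The libraries of a group differed by more than sampling noise, with Spearman correlations of 0.919 to 0.982, so each counted as 1 replicate.

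Gene lists (725 of 727 entries in 41 lists found) were described by counts and medians, without a set test. Members and lists were chosen with earlier results of these data known. Named genes were, in each direction, the 10 with the smallest p among genes whose average log2 CPM reached 1 and whose groups did not overlap, the 4 members of each list with the smallest p, the genes leading the interaction test, and a standing list of immune, TGFb and tissue genes. Exceptions are named as such, and results for some genes are not reported here. Promoters came from RefSeq (GRCm38.p6).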

Additional observations from a re-analysis of the deposited data

Results flagged for a closer look

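In 3 named genes the irradiated tumors all lay on one side of their unirradiated group with the inhibitor and all on the other side without it. Only genes named in the text were searched, and the share over all genes was not counted. Lack of overlap with the inhibitor was a condition for naming Mc1r and Tubb3, and Car9 was named by its small p within its list. No gene passed adjustment in the interaction test of edgeR, so each p here is unadjusted. The interaction, in log2 units, was 2.855 for Car9 (p of 0.00198), where radiation went with higher levels beside the inhibitor and lower levels without it. It was -3.072 for Mc1r (p of 0.000974) and -2.693 for Tubb3 (p of 0.00109), where the order was reversed. For Car9 without the inhibitor, the nearest tumors were at 2.40 CPM (Sham) and 2.37 CPM (RT), a narrow margin. Every RT library carries another library code than the other 3 groups, so the code and radiation without the inhibitor cannot be told apart. The same holds for the control immunoglobulin, which is stated for Sham only.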

How the results depend on the processing

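edgeR called 0 genes in both tests under every alternative run with it, and leaving out single tumors gave 0 to 0 calls. DESeq2 called 3 genes in the comparison and 3 in the interaction. Of 101 genes followed, 96 kept their direction under all alternatives, and 623 of 655 list medians computed under them kept their sign. The median of T cell markers moved from 2.64 to 0.83 without the replicates marked resub, 0.51 in a fit of the 6 tumors alone and 0.36 without the libraries that stand apart, and ranged from 0.78 to 3.12 when single tumors were left out. That of cytotoxic effectors was 1.90 without the libraries that stand apart and ranged from 1.89 to 5.84 with single tumors left out. The lowest values came without TGFbi+RT replicate 3, and fewer members were tested where fewer tumors were fitted.

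Directions turned in 5 genes with fold changes small against their spread, and the cause was not tested. Without both resub replicates, Cgas was at -0.082, Trp53 at 0.058 and Cfd at -2.53. Without the libraries that stand apart (TGFbi+RT replicate 3 and 1 tumor that also received anti-PD-L1, chosen after seeing the data), Cgas was at -0.14, Tgfb1 at -0.12, Trp53 at 0.076 and Cfd at -1.99. Leaving out single tumors gave -0.15 to 0.18 for Cgas, -0.13 to 0.63 for Tgfb1, -0.21 to 0.063 for Trp53, -1.99 to 4.09 for Cfd and -0.51 to 0.33 for Col1a1.

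The replicate block called 0 genes, with 690 at an unadjusted p under 0.05. Deviations of tumors with the same replicate number correlated at -0.00521, 0.23 and 0.251, and those with different numbers at -0.289 to 0.146. These values do not settle whether the number pairs tumors, and the labels do not say that it does. With 3 tumors a group and 11002869 to 13241308 counts each, the spread between tumors limits which differences can pass the test, and genes at 0 to a few counts per tumor give no reliable fold.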

Other observations

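Complement genes were above 0 in 13 of 13 tested members, and their median was 1.57 (log2 fold change), and 0.34 without TGFbi+RT replicate 3. Cfb, complement factor B of the alternative pathway, measured 16, 18.3 and 17.8 CPM in TGFbi and 46.9, 21.5 and 143 CPM in TGFbi+RT, without overlap. Among secreted proteases, the collagenase gene Mmp13 measured 2.55, 1.20 and 2.10 CPM against 5.43, 4.17 and 51.9 CPM, and Mmp11, stromelysin 3 of the tumor stroma, measured 4.22, 3.75 and 3.15 CPM against 8.26, 6.77 and 8.44 CPM. Both separated the groups, and Mmp11 did so with irradiated tumors that lay close together. The stress-induced factor Atf3 measured 5.10, 4.62 and 7.84 CPM against 9.08, 14.8 and 33.1 CPM, again without overlap. The surface antigen Ly6a, a marker of resting fibroblasts that interferon also induces, measured 14.7, 5.42 and 9.21 CPM against 32.4, 23 and 175 CPM.

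Nuclear genes for subunits of the respiratory chain were below 0 in 18 of 26 members, with a median of -0.13. Ndufa5, a subunit of complex I, measured 8.88, 10.8 and 10.8 CPM against 7.14, 7.95 and 6.05 CPM, without overlap. Thrsp, a regulator of lipogenesis, measured 50.7, 23.2 and 21.6 CPM against 14.0, 12.1 and 21.8 CPM and overlapped, with a log2 fold change of -1.31 once TGFbi+RT replicate 3 was left out. Erythrocyte markers were below 0 in 4 of 4 tested members, with a median of -0.57. Cornification genes were below 0 in 11 of 12 members, with a median of -0.56, and of -0.12 with 4 of 12 above 0 without TGFbi+RT replicate 3, yet the tumors of each group spread over more than that, from -1.51 to 2.22 in TGFbi and from -1.03 to 1.71 in TGFbi+RT.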
